A study of Homo sapiens with 12 samples.

Results

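LY96 and its partners in Toll-like receptor signalling were followed in MD901, an established human diffuse large B-cell lymphoma line with wild-type CREBBP, the gene of a histone acetyltransferase. The set held 10 genes, LY96, LY86, CD180, TLR4, TLR1, TLR7, TLR9, TLR10, MYD88 and UNC93B1, taken by symbol from a table of 24181 rows, and each symbol stood on 1 row with no other name. LY96 was chosen by its FPKM with each hairpin against scramble, where it was higher each time, so its values against scramble are a description and carry no test. The other genes were named as relatives and partners of LY96. Of the 10 genes, 9 passed the filter of a mean of at least 1 FPKM over all libraries and CD180 did not.

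Total RNA was sequenced in 12 libraries, 3 in each of 4 groups, all of the same cell line, cultured in IMDM with 10% serum. The cells carried shCREBBP.1027, shCREBBP.3753 or shCREBBP.572, which are short hairpin RNAs designed against CREBBP, or a scramble hairpin. Another label field numbers the first hairpin differently. RNA was depleted of ribosomal RNA and sequenced with a stranded kit. The sources used here do not give how the hairpins were delivered, how long they acted or whether replicates were separate cultures, so a p-value reflects spread among libraries that may be technical replicates. Levels are in FPKM, which corrects the fragments of a gene for its length and for the depth of the library, so that genes can be compared. Differences are in log2(FPKM + 1), which understates changes of low genes, and a gene was called changed at a Benjamini-Hochberg adjusted p below 0.05 in a limma fit over 11757 rows.

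Several facts of the whole series bear on the values below. CREBBP RNA was at 11.4 to 12.6 FPKM in libraries labelled shCREBBP.1027, at 5.92 to 6.16 FPKM with shCREBBP.3753, at 6.91 to 7.99 FPKM with shCREBBP.572, and at 5.82 to 13.7 FPKM in scramble, and with all 12 libraries it was not called lower with any hairpin. The call turned on single scramble libraries: without scramble replicate 3 it was called lower with shCREBBP.3753 (log2 difference -0.63, limma adjusted p = 0.0394), and without scramble replicate 1 it was called higher with shCREBBP.1027 (0.80, limma adjusted p = 8.25e-05). Leaving out scramble replicate 1, which held the 13.7 FPKM, also put CREBBP at -0.07 with shCREBBP.3753 (limma adjusted p = 0.590) and at 0.19 with shCREBBP.572 (0.171), neither called. Every direction below is therefore that of libraries so labelled. Scramble replicate 1 had the lowest array weight, 0.136, against 0.721 to 2.51 for the other libraries, and scramble replicate 3 summed to 4978530 FPKM over all rows, against 538076 to 722976 FPKM elsewhere. Of 9 B-cell markers, 8 had a mean of at least 1 FPKM, and CD22 was listed at 0 in 9 libraries. Of 8 T and NK cell markers and 6 stromal markers, 0 reached that mean, and COL1A1 stood at 6.85 FPKM in scramble replicate 3. The 9 together summed to 312 to 334 FPKM in shCREBBP.1027 libraries, 446 to 487 FPKM in shCREBBP.3753 libraries, 277 to 295 FPKM in shCREBBP.572 libraries and 319 to 387 FPKM in scramble.

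Toll-like receptors detect microbial products and pass the signal through adaptor proteins to NF-kappaB and interferon regulatory factors. LY96 (MD-2) is the small secreted protein that holds the lipid part of bacterial lipopolysaccharide against TLR4. LY86 (MD-1) is its relative and is the partner of CD180 (RP105), a TLR4-like surface protein of B cells. TLR7 and TLR9 sit in endosomes, where they detect single-stranded RNA and unmethylated CpG DNA, and UNC93B1 carries them there from the endoplasmic reticulum. MYD88 is the adaptor shared by most of these receptors and is often mutated in B-cell lymphoma.

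The proximal promoters of 4 of the genes are shown to set their sequence beside the levels described later. A RefSeq promoter was at hand for 5 of the genes other than LY96 (LY86, CD180, TLR4, TLR9 and MYD88). The LY96 promoter was left out of the search, so its motifs are not given. The printed sequences are the 250 bases before the annotated start on build GRCh38.p14, written along the strand of the gene. Capitals mark matches, on either strand, to GAGGAA, the PU box bound by the B-cell and myeloid factors SPI1 and SPIB (read as TTCCTC on the other strand), or to the core of interferon-stimulated response elements, a repeated GAAA with a gap of 2 bases. These motifs do not overlap each other.
LY86 (chr6:6588470-6588719, plus strand): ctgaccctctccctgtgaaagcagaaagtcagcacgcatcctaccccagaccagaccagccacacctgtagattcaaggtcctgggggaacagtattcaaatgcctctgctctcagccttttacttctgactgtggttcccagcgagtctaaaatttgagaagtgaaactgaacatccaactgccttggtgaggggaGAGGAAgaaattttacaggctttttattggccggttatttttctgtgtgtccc
TLR4 (chr9:117704153-117704402, plus strand): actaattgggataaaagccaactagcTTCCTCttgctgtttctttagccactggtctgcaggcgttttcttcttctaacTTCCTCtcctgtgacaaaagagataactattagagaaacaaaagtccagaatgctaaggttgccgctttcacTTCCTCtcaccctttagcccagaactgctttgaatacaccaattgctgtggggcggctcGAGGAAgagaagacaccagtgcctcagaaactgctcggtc
TLR9 (chr3:52225646-52225895, minus strand): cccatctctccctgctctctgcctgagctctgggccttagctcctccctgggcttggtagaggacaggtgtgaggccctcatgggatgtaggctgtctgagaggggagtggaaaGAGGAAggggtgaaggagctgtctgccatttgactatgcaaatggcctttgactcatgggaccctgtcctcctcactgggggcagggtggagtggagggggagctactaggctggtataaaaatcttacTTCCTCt
MYD88 (chr3:38138411-38138660, plus strand): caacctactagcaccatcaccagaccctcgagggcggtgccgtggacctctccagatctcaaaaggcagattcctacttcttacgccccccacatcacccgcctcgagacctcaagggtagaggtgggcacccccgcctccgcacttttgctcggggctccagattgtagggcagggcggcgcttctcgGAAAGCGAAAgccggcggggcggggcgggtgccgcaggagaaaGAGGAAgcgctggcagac
GAGGAA occurred in each of these 4 windows, with 4 matches in TLR4 and 2 in TLR9, and in none for CD180. Of 35116 promoter windows of the same length, 23.6% held it. That repeat occurred in MYD88 alone of the 5 genes, against 3.02% of all windows, and TGACGTCA, the full site of CREB, occurred in none of the 5, against 1.65% of all windows. A match describes the letters only.

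LY96 (hg19 chromosome 8, 74903564 to 74941307) was higher in every library with a CREBBP hairpin than in every scramble library. It stood at 13.9, 18.7 and 11.5 FPKM with shCREBBP.1027, at 11.9, 6.95 and 10.1 FPKM with shCREBBP.3753, at 5.75, 3.93 and 4.96 FPKM with shCREBBP.572, and at 1.73, 2.24 and 3.36 FPKM in scramble. The lowest hairpin library lay above the highest scramble library. Over all tested rows, 7.61% had all 9 hairpin libraries on the same side of scramble, and nothing is read from this for LY96, since it was picked for it. The ratio of mean FPKM over scramble was 6.02 for shCREBBP.1027, 3.96 for shCREBBP.3753 and 2.00 for shCREBBP.572. The log2 differences were 2.19 ± 0.23 (SE), 1.63 ± 0.23 and 0.79 ± 0.23 for the same hairpins, and 1.54 ± 0.19 averaged.

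The order of LY96 levels was shCREBBP.1027, shCREBBP.3753, shCREBBP.572 and scramble, from high to low. Differences between hairpins hold no scramble values, but their p-values use a spread estimated from all 12 libraries, scramble included. The hairpin values of LY96 also entered its choice, so its p-values here are not independent of that choice. An F test found that LY96 differed among the hairpins (limma adjusted p = 9.97e-04), as did 56.4% of all tested rows. The 3 libraries with shCREBBP.572 lay below the 3 with shCREBBP.1027 (log2 difference -1.40 ± 0.23 SE, limma adjusted p = 5.15e-04), where 41.5% of rows were called. They also lay below those with shCREBBP.3753 (-0.84 ± 0.23, limma adjusted p = 0.0149), where 32.6% of rows were called. That last call ended without shCREBBP.3753 replicate 1 (limma adjusted p = 0.0652), without its replicate 3 (0.0524) or without shCREBBP.572 replicate 2 (0.0641). Libraries of shCREBBP.3753 and shCREBBP.1027 overlapped, and their difference was -0.56 (95% interval -1.06 to -0.06, limma adjusted p = 0.0704), so these neighbours in the order were not told apart after adjustment. Of rows in that comparison, 40.6% were called. The LY96 difference was called in 4 of 18 alternatives. These were without shCREBBP.1027 replicate 3 (limma adjusted p = 0.0480), without shCREBBP.3753 replicate 1 (0.0473), quantile normalization (0.0451) and array weights (0.0480). Groups did not overlap in 58.8% of rows between shCREBBP.3753 and shCREBBP.1027, in 56.8% between shCREBBP.572 and shCREBBP.1027, and in 52.2% between shCREBBP.572 and shCREBBP.3753. Against scramble these shares were 47% for shCREBBP.1027, 43.3% for shCREBBP.3753 and 32.1% for shCREBBP.572.

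**Figure D1:**
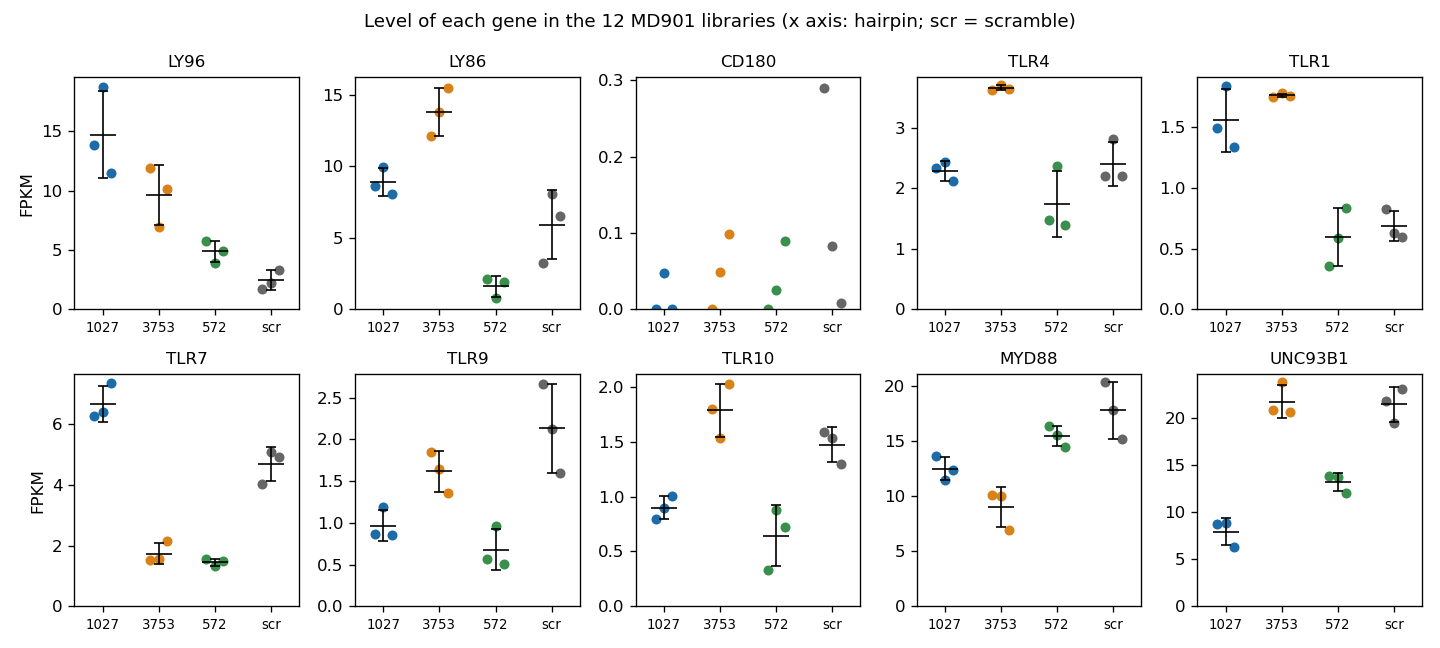
Level in FPKM (y axis, from 0, own scale per gene) of the 10 genes in the 12 libraries, by hairpin (x axis). Points are libraries and bars are the mean ± SD of 3, left out for CD180, which is listed at 0 in some libraries; LY96 steps down from shCREBBP.1027 to scramble, while the other genes follow different orders.

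Myeloid cells are a known source of LY96, TLR4 and CD14, so myeloid markers were read beside LY96. Of 12 markers, LYZ and CD68 alone (2) had a mean of at least 1 FPKM, and S100A8 was listed at 0 in all 12 libraries. All 12 together, CD14 included, summed to 4.08 to 5.05 FPKM in shCREBBP.1027 libraries and 3.45 to 3.72 FPKM in shCREBBP.3753 libraries. The sum was 2.67 to 4.47 FPKM in shCREBBP.572 libraries and 1.82 to 3.22 FPKM in scramble. The range of the sum was lowest in scramble and overlapped that of shCREBBP.572, and its part in the level of LY96 was not tested. In the averaged comparison LYZ (0.15, limma adjusted p = 0.558) and CD68 (0.35, limma adjusted p = 0.220) were not called. CSF1R, below the filter, had its highest mean in scramble, at 0.207 FPKM. CD14, which hands lipopolysaccharide to LY96 and TLR4, was at 0.916, 0.860 and 1.02 FPKM with shCREBBP.1027, at 0.0880, 0 and 0 with shCREBBP.3753, at 0.263, 0.0914 and 0.326 with shCREBBP.572, and at 0, 0.154 and 0.0330 in scramble. CD14 was higher in each shCREBBP.1027 library than in every other library, but it did not pass the filter and was not tested. In bulk RNA, more cells of a type and more RNA per cell cannot be told apart.

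The nearest tested rows on either side of LY96 showed no such rise. TMEM70, which lies 7907 bases away and encodes a factor for assembly of mitochondrial ATP synthase, was at 10.3 ± 1.41 FPKM with shCREBBP.1027, 8.17 ± 0.443 with shCREBBP.3753, 8.43 ± 0.782 with shCREBBP.572 and 8.997 ± 0.388 in scramble (SD, n = 3 each). Its averaged log2 difference was -0.02 ± 0.08 (SE; limma adjusted p = 0.910). CASC9, a long noncoding RNA 1194044 bases away on the other side, averaged 1.23 to 1.82 FPKM by hairpin and 1.98 ± 1.44 FPKM in scramble (SD, n = 3) (-0.13 ± 0.24 SE, limma adjusted p = 0.729). The sign of both small differences changed in some alternatives, given in the closing section.

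The 5 genes whose pattern was most like that of LY96 were found by Pearson correlation of log2(FPKM + 1) over the 12 libraries among 10488 rows without a value of 0. They were POLR1D (r = 0.961), a shared subunit of RNA polymerases, ALOX5AP (0.961), which presents arachidonic acid to the enzyme of leukotriene synthesis, NAT9 (0.959), TUSC2 (0.958) and TTC14 (0.957). The 12 points share groups and libraries, so these values describe likeness only. ALOX5AP was at 125 ± 4.13 FPKM with shCREBBP.1027, 117 ± 11.3 with shCREBBP.3753, 67.8 ± 4.49 with shCREBBP.572 and 42.8 ± 3.28 in scramble (SD, n = 3 each). POLR1D spanned 127 to 211 FPKM over the libraries. All 5 had the same order of group means as LY96, which their choice by likeness in large part fixes.

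**Figure D2:**
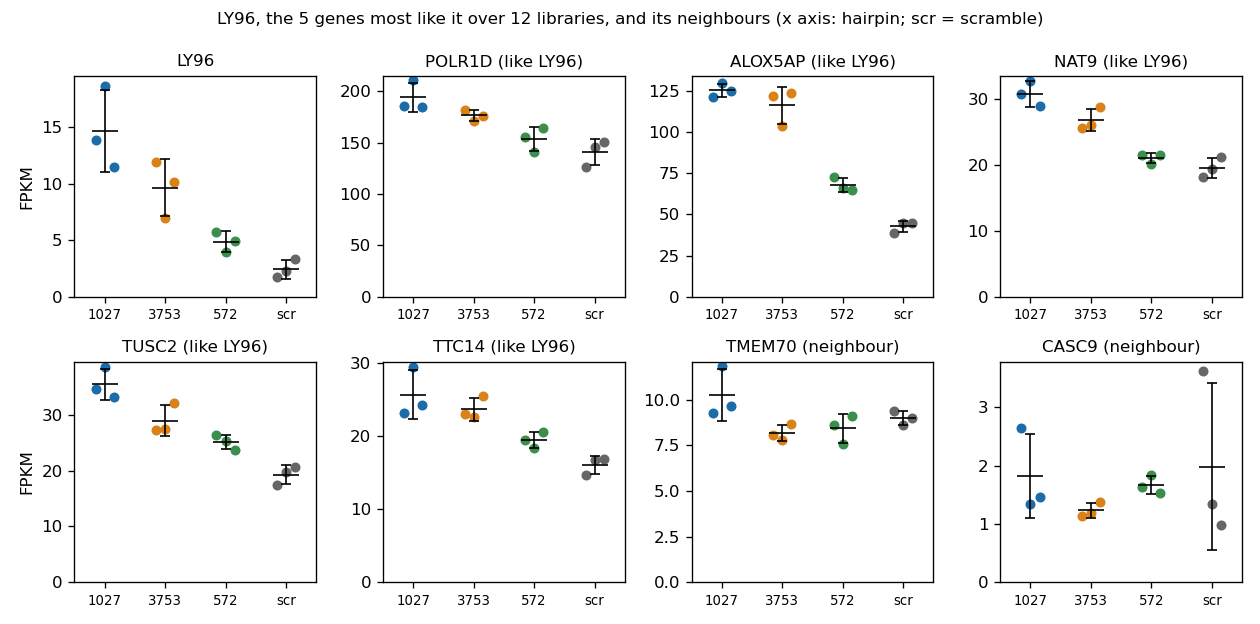
Level in FPKM (y axis, from 0) of LY96, the 5 genes most like it and its neighbours TMEM70 and CASC9, by hairpin (x axis). Points are libraries and bars are the mean ± SD of 3; ALOX5AP averages 125 FPKM with shCREBBP.1027 and 42.8 FPKM in scramble, and TMEM70 stays between 8.17 and 10.3 FPKM by group.

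TLR4 (hg19 chromosome 9, 120466453 to 120479769), the receptor that LY96 serves, did not follow LY96. It was at 2.33, 2.44 and 2.11 FPKM with shCREBBP.1027, at 3.63, 3.71 and 3.65 FPKM with shCREBBP.3753, at 1.48, 2.37 and 1.39 FPKM with shCREBBP.572, and at 2.20, 2.82 and 2.20 FPKM in scramble. Libraries with shCREBBP.3753 lay above all others, and the other groups overlapped. TLR4 was called higher with shCREBBP.3753 (log2 difference 0.46 ± 0.15 SE, limma adjusted p = 0.0427), but that call ended in 11 of 17 alternatives (limma adjusted p 0.0178 to 0.104 over them), among them leaving out either scramble replicate 1 (0.0871) or 3 (0.0804). It was not called with shCREBBP.1027 (-0.04, 95% interval -0.38 to 0.29) or with shCREBBP.572 (-0.32, 95% interval -0.66 to 0.01), although the fall with shCREBBP.572 was called without its replicate 2 (limma adjusted p = 0.0380). The ratio of LY96 to TLR4, on the FPKM scale, was 5.96, 7.67 and 5.45 with shCREBBP.1027, 3.29, 1.87 and 2.77 with shCREBBP.3753, 3.89, 1.66 and 3.57 with shCREBBP.572, and 0.786, 0.795 and 1.53 in scramble. Every hairpin library had a higher ratio than every scramble library, which the choice of LY96 in part fixes.

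LY86 (hg19 chromosome 6, 6346698 to 6655216), the relative of LY96, moved in opposite directions between hairpins. It was at 8.65, 9.96 and 8.11 FPKM with shCREBBP.1027, at 12.2, 13.8 and 15.5 FPKM with shCREBBP.3753, at 2.12, 0.772 and 1.94 FPKM with shCREBBP.572, and at 3.26, 8.05 and 6.50 FPKM in scramble. No group overlapped another, although the lowest shCREBBP.1027 library, at 8.11 FPKM, stood next to the highest scramble library, at 8.05 FPKM. LY86 rose with shCREBBP.3753 (log2 difference 1.16 ± 0.27 SE, limma adjusted p = 0.00766) and fell by 1.39 ± 0.27 with shCREBBP.572 (limma adjusted p = 0.00399), both in 3 of 3 libraries. The difference with shCREBBP.1027 was 0.58 (95% interval -0.01 to 1.16, limma adjusted p = 0.109). It was 0.81 and called without scramble replicate 2 (limma adjusted p = 0.0406), and 0.26 and not called without scramble replicate 1 (0.363). Between shCREBBP.572 and shCREBBP.3753 the difference was -2.54 ± 0.27 (limma adjusted p = 3.83e-05). The averaged difference was 0.12 (limma adjusted p = 0.729). The interval of the row, 308519 bases, is wider than the LY86 gene of 66263 bases in RefSeq and is shared with 16 rows named LY86-AS1, an antisense gene, and without a stated strand setting reads of the genes cannot be told apart. Those 16 rows summed to 8.87 to 18.4 FPKM in shCREBBP.1027 libraries, 8.90 to 24.2 FPKM in shCREBBP.3753 libraries, 4.83 to 9.74 FPKM in shCREBBP.572 libraries and 7.73 to 38.4 FPKM in scramble.

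CD180 (hg19 chromosome 5, 66478104 to 66492617), the partner of LY86, was near 0 throughout. It was listed at 0, 0.0477 and 0 FPKM with shCREBBP.1027, at 0, 0.0494 and 0.0984 with shCREBBP.3753, at 0, 0.0247 and 0.0895 with shCREBBP.572, and at 0.290, 0.0832 and 0.00890 in scramble. It was listed at 0 in 4 libraries, the groups overlapped, and no fold or test is given.

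TLR7 (hg19 chromosome X, 12885202 to 12908480), the receptor of single-stranded RNA, moved in opposite directions between hairpins. It was at 6.28, 6.40 and 7.35 FPKM with shCREBBP.1027, at 1.51, 1.56 and 2.15 FPKM with shCREBBP.3753, at 1.55, 1.31 and 1.49 FPKM with shCREBBP.572, and at 4.04, 5.08 and 4.92 FPKM in scramble. Libraries with shCREBBP.1027 lay above scramble, and those of the other hairpins below it. The ratio of means over scramble was 0.372 with shCREBBP.3753 (log2 difference -1.05 ± 0.13 SE, limma adjusted p = 1.96e-04) and 0.311 with shCREBBP.572 (-1.21 ± 0.13, limma adjusted p = 1.01e-04). With shCREBBP.1027 it rose by 0.44 ± 0.13 (limma adjusted p = 0.0202), a call lost without scramble replicate 1 (0.0542), without shCREBBP.1027 replicate 3 (0.0852) or with no filter on low values (0.0584). Between shCREBBP.572 and shCREBBP.1027 the difference was -1.64 ± 0.13 (limma adjusted p = 4.55e-06). Between shCREBBP.572 and shCREBBP.3753 it was -0.15 (95% interval -0.44 to 0.13, limma adjusted p = 0.406).

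TLR9 (hg19 chromosome 3, 52255096 to 52260179), the receptor of CpG DNA, was lower with shCREBBP.1027 and shCREBBP.572. It was at 0.867, 1.19 and 0.853 FPKM with shCREBBP.1027, at 1.84, 1.65 and 1.36 FPKM with shCREBBP.3753, at 0.562, 0.957 and 0.511 FPKM with shCREBBP.572, and at 2.67, 2.13 and 1.60 FPKM in scramble. Only the shCREBBP.3753 libraries overlapped scramble. TLR9 fell by 0.66 ± 0.20 (SE) with shCREBBP.1027 (limma adjusted p = 0.0240) and by 0.90 ± 0.20 with shCREBBP.572 (limma adjusted p = 0.0101). It was at -0.25 with shCREBBP.3753 (95% interval -0.70 to 0.20, limma adjusted p = 0.386). The call with shCREBBP.1027 ended in 4 alternatives, each leaving out 1 library, among them scramble replicate 1 (0.0582) and scramble replicate 2 (0.0594).

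UNC93B1 (hg19 chromosome 11, 67758571 to 67771595), the carrier of the endosomal receptors, fell with shCREBBP.1027 and shCREBBP.572. It was at 8.69, 8.79 and 6.31 FPKM with shCREBBP.1027, at 20.8, 23.8 and 20.6 FPKM with shCREBBP.3753, at 13.8, 13.7 and 12.04 FPKM with shCREBBP.572, and at 21.8, 19.4 and 23.1 FPKM in scramble. The groups of shCREBBP.1027 and shCREBBP.572 overlapped neither scramble nor each other. The ratio of means over scramble was 0.370 with shCREBBP.1027 (log2 difference -1.34 ± 0.12 SE, limma adjusted p = 1.01e-05) and 0.615 with shCREBBP.572 (-0.66 ± 0.12, limma adjusted p = 0.00261). With shCREBBP.3753 it was at 0.02 (95% interval -0.24 to 0.28, limma adjusted p = 0.920). The difference between shCREBBP.572 and shCREBBP.1027 was 0.68 ± 0.12 (limma adjusted p = 8.43e-04).

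TLR1 and TLR10 are neighbours on hg19 chromosome 4 (38797123 to 38806412 and 38773860 to 38784611), and both had their highest mean with shCREBBP.3753 and their lowest with shCREBBP.572. TLR1, which pairs with TLR2 to detect bacterial lipopeptides, was at 1.495, 1.84 and 1.33 FPKM with shCREBBP.1027, at 1.75, 1.78 and 1.76 FPKM with shCREBBP.3753, at 0.360, 0.587 and 0.833 FPKM with shCREBBP.572, and at 0.826, 0.632 and 0.596 FPKM in scramble. Libraries with shCREBBP.1027 and shCREBBP.3753 lay above scramble, and those with shCREBBP.572 overlapped it. TLR1 rose by 0.60 ± 0.20 (SE) with shCREBBP.1027 (limma adjusted p = 0.0322) and by 0.71 ± 0.20 with shCREBBP.3753 (limma adjusted p = 0.0190). The first of these calls ended in 7 of 17 alternatives, among them without scramble replicate 2 (0.0723), without each shCREBBP.1027 library (0.0528 to 0.114) and with the replicate number as a block (0.0534), and the second in 3, each leaving out an shCREBBP.3753 library (0.0536 to 0.0580).

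TLR10, a receptor found mainly on B cells in humans, was at 0.794, 0.900 and 1.01 FPKM with shCREBBP.1027, at 1.797, 1.54 and 2.03 FPKM with shCREBBP.3753, at 0.333, 0.876 and 0.725 FPKM with shCREBBP.572, and at 1.59, 1.54 and 1.30 FPKM in scramble. Libraries with shCREBBP.1027 and shCREBBP.572 lay below scramble, but the differences of -0.38 (limma adjusted p = 0.156) and -0.60 (limma adjusted p = 0.0552) were not called. The difference with shCREBBP.572 was called in 5 alternatives, among them without scramble replicate 3 (0.0334). TLR10 was lower with shCREBBP.572 than with shCREBBP.3753 (-0.77 ± 0.20 SE, limma adjusted p = 0.0117), a call that ended without shCREBBP.3753 replicate 3 (0.0506). The ratio of TLR1 to TLR10, on the FPKM scale, was 1.32 to 2.04 in shCREBBP.1027 libraries, 0.868 to 1.16 in shCREBBP.3753 libraries, 0.670 to 1.15 in shCREBBP.572 libraries and 0.411 to 0.520 in scramble, so no hairpin library overlapped scramble. This ratio was not tested. Of single tested rows, 7.61% had all 9 hairpin libraries on the same side of scramble, and the share among ratios is not known. Both genes were below 1 FPKM in every shCREBBP.572 library, where such a ratio is uncertain. The ratio of TLR7 to TLR9 lay above scramble with shCREBBP.1027 and overlapped scramble with shCREBBP.3753 and shCREBBP.572.

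MYD88 (hg19 chromosome 3, 38179969 to 38184512), the common adaptor, was lower with shCREBBP.3753 and shCREBBP.1027. It was at 13.6, 11.5 and 12.4 FPKM with shCREBBP.1027, at 10.1, 10.1 and 6.91 FPKM with shCREBBP.3753, at 16.4, 15.6 and 14.5 FPKM with shCREBBP.572, and at 20.4, 17.8 and 15.2 FPKM in scramble. Libraries with shCREBBP.572 overlapped scramble, and the others lay below it. MYD88 fell by 0.92 ± 0.14 (SE) with shCREBBP.3753 (limma adjusted p = 7.52e-04) and by 0.47 ± 0.14 with shCREBBP.1027 (limma adjusted p = 0.0192). The second call ended without scramble replicate 1 (0.0589), without shCREBBP.1027 replicate 2 (0.0699) or without its replicate 3 (0.0515). With shCREBBP.572 the difference was -0.18 (95% interval -0.49 to 0.12, limma adjusted p = 0.408), and MYD88 was higher there than with shCREBBP.3753 (0.73 ± 0.14, limma adjusted p = 0.00203).

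**Figure D3:**
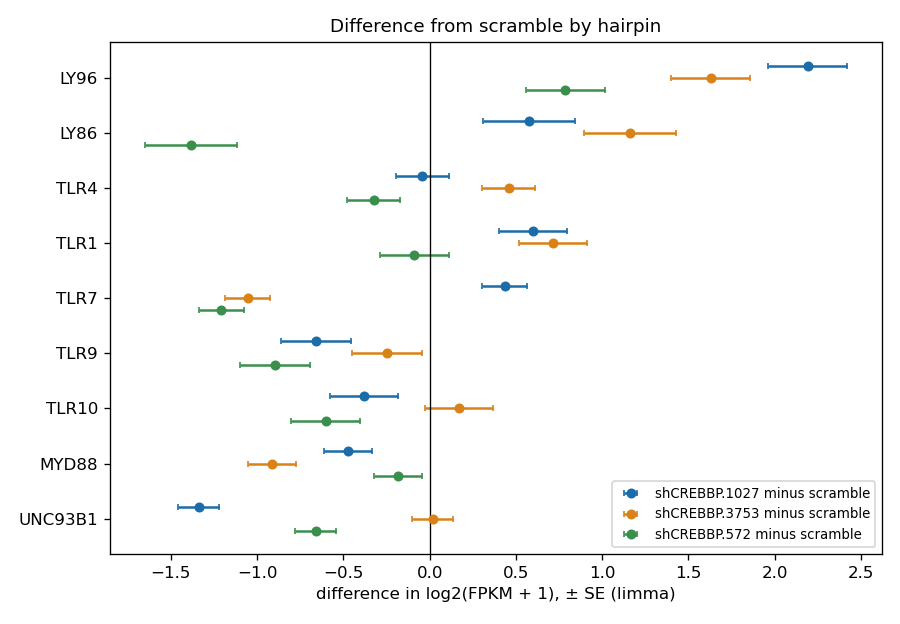
Difference from scramble in log2(FPKM + 1) (x axis, ± SE from limma) of 9 genes (y axis) for each hairpin, with CD180 left out because it did not pass the filter. LY96 lies right of 0 with each hairpin, at 0.79 to 2.19, while LY86 runs from -1.39 to 1.16 and TLR7 from -1.21 to 0.44.

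Counted over the 8 tested genes other than LY96, the averaged comparison with scramble called 4 lower (TLR7, TLR9, MYD88 and UNC93B1) and 0 higher, with a median log2 difference of -0.40. Of all tested rows, 14.6% were called lower and 11.5% higher, with a median of -0.003. At an unadjusted p below 0.05 TLR1 was higher too (0.41, limma adjusted p = 0.0861), the 1 such gene. Without scramble replicate 1 or 2 the count of lower genes was 3, TLR9 being lost (limma adjusted p = 0.0691 and 0.0672). When the 9 hairpin libraries were taken as 1 group, so that differences between hairpins counted as error, 0 of the 8 were called by limma (at an unadjusted p below 0.05, 0 were higher and 2 lower). With shCREBBP.1027, 2 of the 8 were higher and 3 lower, where 16.5% and 22.7% of rows were called in these directions. Without scramble replicate 1 these counts were 1 and 1, and without shCREBBP.1027 replicate 3 they were 0 and 1. With shCREBBP.3753, 3 were higher and 2 lower, against 16.1% and 13.2% of rows, and leaving out any shCREBBP.3753 library left 1 higher and 2 lower. With shCREBBP.572, 0 were higher and 4 lower (LY86, TLR7, TLR9 and UNC93B1), against 8.99% and 10.8% of rows (at an unadjusted p below 0.05, 0 were higher and 5 lower). These comparisons share the scramble libraries. All 8 differed between the hairpins by the F test (limma adjusted p 3.52e-06 to 0.0459), where 56.4% of rows were called.

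Of the other Toll-like receptors, TLR2 alone of 5 was tested. It was at 2.48 ± 0.254 FPKM with shCREBBP.1027, 1.88 ± 0.349 with shCREBBP.3753, 4.16 ± 0.368 with shCREBBP.572 and 3.48 ± 1.85 in scramble (SD, n = 3 each), and its averaged difference of -0.19 was not called (limma adjusted p = 0.519). TLR6, the neighbour of TLR1 and also a partner of TLR2, was at 0.867 to 1.02 FPKM in shCREBBP.1027 libraries, 0.621 to 0.840 in shCREBBP.3753 libraries, 0.194 to 0.432 in shCREBBP.572 libraries and 0.460 to 0.708 in scramble, and was not tested. TLR3, the receptor of double-stranded RNA, was at 0.492 to 0.973 FPKM in shCREBBP.1027 libraries, 0.677 to 0.834 in shCREBBP.3753 libraries, 0.119 to 0.339 in shCREBBP.572 libraries and 0.0858 to 0.451 in scramble. TLR5 and TLR8 were at no more than 0.0612 FPKM in any of the 12 libraries. Of the lipopolysaccharide handling list (CD14, LBP, BPI and AOAH), 0 of 4 passed the filter.

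The lists of pathway genes held 64 symbols in all, of which 60 had a row and 47 were tested. In the averaged comparison 7 of the 47 were higher (14.9%) and 12 lower (25.5%), against 11.5% and 14.6% of all tested rows, so the higher share was near that of all rows. The median log2 difference of the 47 was -0.01. Without scramble replicate 3 the counts were 4 and 11, without scramble replicate 1 they were 5 and 14, and with the 9 hairpin libraries as 1 group 1 was higher and 0 lower. The members that moved belonged to different steps of the pathway.

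Among chaperones and endosomal processing genes, 4 of 9 fell and 0 rose (median -0.18), where 14.6% of all rows fell and 11.5% rose. LRRC59, a membrane protein that assists UNC93B1 traffic, was at 110 ± 5.88 FPKM with shCREBBP.1027, 95.3 ± 4.86 with shCREBBP.3753, 71.2 ± 2.86 with shCREBBP.572 and 130 ± 14.6 in scramble (SD, n = 3 each), and fell by 0.51 ± 0.07 (SE; limma adjusted p = 5.57e-04). HSP90B1, the chaperone that folds Toll-like receptors, was at 158 ± 8.32 FPKM with shCREBBP.1027, 243 ± 15.5 with shCREBBP.3753, 149 ± 8.06 with shCREBBP.572 and 255 ± 41.4 in scramble, and fell by 0.49 ± 0.09 averaged (limma adjusted p = 0.00265). With shCREBBP.3753 HSP90B1 was at -0.06. The others that fell were SLC15A4, a transporter of endosomes, and AP3B1, of vesicle sorting, and both were chosen for naming after their values were seen. SLC15A4 libraries with shCREBBP.3753 and AP3B1 libraries with shCREBBP.572 overlapped scramble.

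Of 5 adaptors, TICAM1 (TRIF), which serves TLR3 and TLR4, was the 1 that fell and 0 rose (median -0.04), against 14.6% and 11.5% of all rows. It was at 8.09 ± 0.0874 FPKM with shCREBBP.1027, 9.87 ± 0.592 with shCREBBP.3753, 10.9 ± 0.307 with shCREBBP.572 and 13.6 ± 1.96 in scramble (SD, n = 3 each; -0.46 ± 0.08 SE, limma adjusted p = 0.00132). It was called lower with each hairpin. Of 17 kinases and ubiquitin ligases, 3 rose and 3 fell (median -0.001), shares near the 11.5% and 14.6% of all rows. IRAK1, the kinase recruited by MYD88, was at 55.7 ± 3.08 FPKM with shCREBBP.1027, 116 ± 5.68 with shCREBBP.3753, 120 ± 3.502 with shCREBBP.572 and 145 ± 6.85 in scramble (-0.66 ± 0.06, limma adjusted p = 2.65e-05). BTK, a tyrosine kinase of B-cell receptor and Toll-like receptor signalling, fell by 0.55 ± 0.11 (limma adjusted p = 0.00312) and was at -0.02 with shCREBBP.3753. The others called in the averaged comparison were TRAF3, which was lower, and UBE2V1, RIPK1 and SYK, which were higher, all chosen for naming after their values were seen. Of these, TRAF3 alone lay on the same side of scramble in every hairpin library. RIPK1 was at 6.40, 6.03 and 5.85 FPKM with shCREBBP.1027 and at 6.06, 7.89 and 5.92 FPKM in scramble. With shCREBBP.3753 RIPK1 was at 11.5, 13.5 and 14.2 FPKM. UBE2V1 libraries with shCREBBP.572 and SYK libraries with shCREBBP.1027 overlapped scramble.

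Of 5 interferon regulatory factors, 1 rose and 2 fell (median -0.31), against 11.5% and 14.6% of all rows. IRF4, a factor of B-cell and plasma cell identity, fell by 0.31 ± 0.05 (SE; limma adjusted p = 9.45e-04), at 82.7 ± 0.484 FPKM with shCREBBP.1027, 70.1 ± 2.20 with shCREBBP.3753, 92.0 ± 1.91 with shCREBBP.572 and 101 ± 4.20 in scramble (SD, n = 3 each). IRF3, which acts downstream of TICAM1, fell by 0.31 ± 0.10 averaged (limma adjusted p = 0.0367), a call that ended in 8 of 19 alternatives, among them without scramble replicate 2 (0.0740) or 3 (0.168) and with the replicate number as a block (0.0518). IRF3 was at 21.67 ± 1.835 FPKM with shCREBBP.1027, 19.98 ± 1.05 with shCREBBP.3753, 32.3 ± 4.89 with shCREBBP.572 and 30.3 ± 3.93 in scramble. Its mean with shCREBBP.572 thus lay above that of scramble. Of 10 genes listed as negative regulators, 3 rose and 2 fell (median 0.10), against the same shares of all rows. The ubiquitin ligases PELI3 and PELI2, which bind IRAK kinases, went opposite ways. PELI3 was at 2.90 ± 0.266 FPKM with shCREBBP.1027, 5.18 ± 0.852 with shCREBBP.3753, 6.38 ± 0.529 with shCREBBP.572 and 9.39 ± 0.279 in scramble (-0.89 ± 0.09, limma adjusted p = 5.01e-05). PELI2 was at 21.8 ± 1.24, 18.8 ± 1.19 and 18.2 ± 1.28 FPKM with the same hairpins and at 12.1 ± 0.897 in scramble (0.65 ± 0.07, limma adjusted p = 6.91e-05). PELI2 was the gene of these lists still called with the 9 hairpin libraries as 1 group (limma adjusted p = 0.010).

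**Figure D4:**
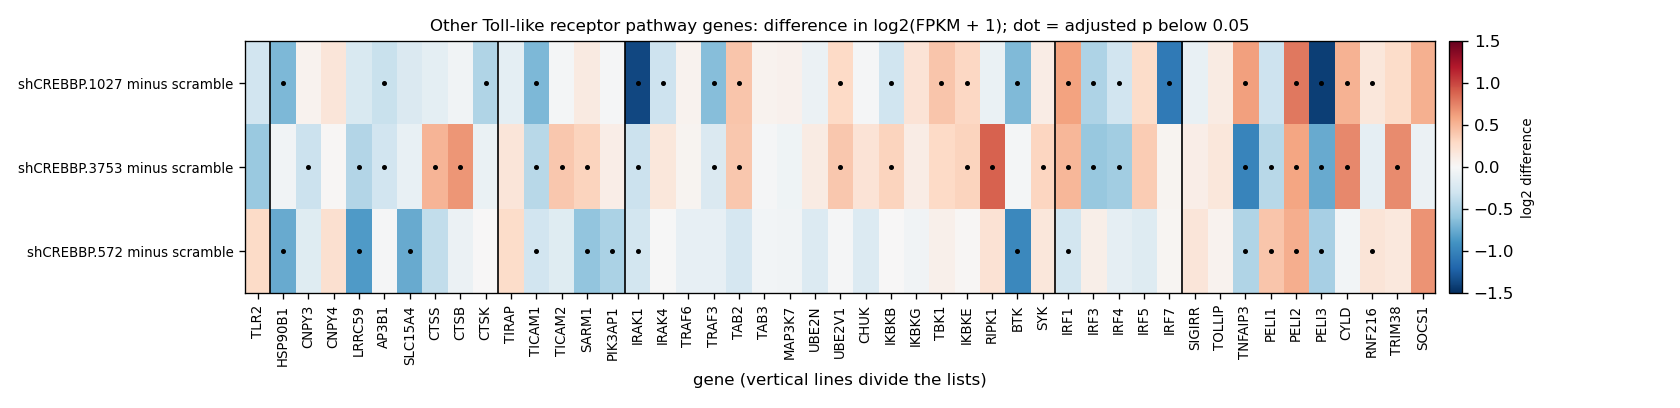
Difference from scramble in log2(FPKM + 1) (colour, blue lower and red higher) of the 47 tested pathway genes (x axis) for each hairpin (y axis), with a dot where the adjusted p is below 0.05. PELI2 is higher and IRAK1, TICAM1 and PELI3 are lower with each hairpin, while BTK and HSP90B1 are near 0 with shCREBBP.3753.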

How the data were processed

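RNA was measured in 12 MD901 libraries. Per the submitters' processing notes, the authors used CASAVA 1.8, TopHat2, Cufflinks and build hg19, and deposited 1 table of values. The values were read as FPKM, because Cufflinks is named, although the deposited table does not state the unit. Annotation, strand setting and filters: not given in the sources used here. Each row covers an assembled interval, counted from 1, that can exceed the gene or fall short of it. The LY96 row spans 37744 bases, against 108466 for the RefSeq gene on GRCh38. The rows of TLR4 (13317 against 20333 bases) and TLR1 (9290 against 18076 bases) are also shorter.

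Values were analysed as log2(FPKM + 1) for rows averaging 1 FPKM or more over the libraries, with limma 3.58.1 (R 4.3.3), a mean per group and a variance trend, tested on simulated data beforehand. All contrasts were adjusted over 11757 rows. Alternatives were a pseudocount of 0.1, no filter, a mean of at least 5 FPKM, quantile normalization, array weights, a replicate block, leaving out each library, and the 9 hairpin libraries as 1 group. The genes and lists were chosen with earlier results of these data known. Named genes were CREBBP, the 10 members, from each list the 2 called rows with the largest averaged change (or that with the smallest p), the 5 most like LY96 and its neighbours. No pair of libraries (0) held identical values. FPKM hold no read counts: steps of low values put depth relative to scramble replicate 1 at 1.11 to 2.01 in the other libraries, that of scramble replicate 3 being uncertain, so no counting error is given.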

Additional observations from a re-analysis of the deposited data

Results flagged for a closer look

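For each of the 9 tested genes the effect of the hairpins differed between hairpins by the F test, as it did for 56.4% of all rows. The values below are log2 differences between the hairpins farthest apart, with limma adjusted p. LY96 was lower with shCREBBP.572 than with shCREBBP.1027 (-1.40, adjusted p = 5.15e-04), and so was TLR7 (-1.64, adjusted p = 4.55e-06). The p-value of LY96 is not independent of its choice, since its hairpin values entered that choice. Lower with shCREBBP.572 than with shCREBBP.3753 were LY86 (-2.54, adjusted p = 3.83e-05), TLR4 (-0.78, adjusted p = 0.00241), TLR1 (-0.80, adjusted p = 0.00914), TLR9 (-0.65, adjusted p = 0.0304) and TLR10 (-0.77, adjusted p = 0.0117). MYD88 was higher with shCREBBP.572 than with shCREBBP.3753 (0.73, adjusted p = 0.00203). UNC93B1 was higher with shCREBBP.3753 than with shCREBBP.1027 (1.36, adjusted p = 7.10e-06). The call for TLR9 ended without shCREBBP.3753 replicate 1 (adjusted p = 0.0990) or 2 (0.0822) and without shCREBBP.572 replicate 1 (0.0844) or 3 (0.0783).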

How the results depend on the processing

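LY96 stayed higher than scramble in all 19 alternatives of the averaged comparison (1.38 to 1.84) and moved most with a pseudocount of 0.1, to 2.56 with shCREBBP.1027 and 1.96 with shCREBBP.3753. Rows called in the averaged comparison numbered 3060, but 206 when the 9 hairpin libraries formed 1 group. Rows called with shCREBBP.572 numbered 2323, but 3726 under array weights. Leaving out 1 library gave 2423 to 3323 rows averaged and 1684 to 2985 rows with shCREBBP.572. The other counts of called rows stayed within 1.5 times. Among the named values, signs changed for differences that were not called, except that CREBBP, averaged, was called higher without scramble replicate 1 (0.30, limma adjusted p = 0.0174): in the averaged comparison LY86 to -0.22, TLR4 to -0.088, CREBBP to 0.21, TMEM70 to 0.0089 and CASC9 to 0.14 with array weights, CREBBP with shCREBBP.572 to 0.11 with array weights, and UNC93B1 with shCREBBP.3753 to -0.0077 with quantile normalization. Leaving out 1 library gave averaged ranges of -0.20 to 0.34 for LY86, -0.022 to 0.12 for TLR4, -0.25 to 0.30 for CREBBP, -0.48 to 0.12 for TLR2, -0.049 to 0.012 for TMEM70 and -0.37 to 0.24 for CASC9. It gave -0.087 to 0.042 for TLR4 with shCREBBP.1027, -0.047 to 0.072 for UNC93B1 with shCREBBP.3753, and with shCREBBP.572 -0.20 to 0.020 for TLR1 and -0.37 to 0.19 for CREBBP. The cause was not tested. Same-numbered libraries correlated by -0.06 to 0.13 in their deviations, with 2 of 18 pairs over 0.1. These correlations were low, so the numbers were not taken to pair samples. Of 12 libraries, 7 were closest to their own number, which was not set against chance, so pairing was not excluded. With the replicate block 3111 rows were called in the averaged comparison, and of 87 named values 3 calls were lost, TLR1 with shCREBBP.1027 (0.0534), TLR10 between shCREBBP.3753 and shCREBBP.1027 (0.0667) and IRF3 averaged (0.0518), and 1 gained, MYD88 between shCREBBP.572 and shCREBBP.1027 (0.0480, limma adjusted p). Each of the 10 symbols stood on 1 row, so summing rows changed nothing. Read depth is unknown.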
